A study of Mus musculus with 6 samples.

Results

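Sgk1, Dusp1, Egr1, Ier3 and Myc were described in mouse liver after gigantol, liver by liver. The 5 genes are rows of the authors' deposited table, which holds 332 genes in all, and each was picked by its symbol. Liver RNA had been sequenced from 6 male Kunming mice, an outbred stock, aged 6 to 8 weeks and weighing 20 to 28 g. The gigantol group (treatment label Gigantol administration, 3 mice) took 10 mg/kg by mouth, and the vehicle group (Solvent administration, 3 mice) took the same volume of vehicle. Livers were taken 4 h later, 1 library was made per mouse and all share 1 batch label. Gigantol is a bibenzyl from orchids which the series title calls an agonist of PPARα and PPARγ, lipid-sensing nuclear receptors. Sample titles carry the name of PANC1, a cell line from a human pancreatic tumour, while the tissue and organism labels and the gene IDs are those of mouse, so the groups rest on the treatment label.

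The rows of the table had been selected on the contrast described here: by the authors' own values the highest unadjusted p was 0.0499 and the smallest log2 fold change 1.00 in size, and the 5 genes were chosen from them with their values known. Their differences between gigantol and vehicle are therefore given as a description, with no test, and support nothing further. Dusp1 lay nearest the fold limit, at a log2 fold change of −1.06 in the authors' deposited table, and Myc nearest the p limit, at 0.00981. Genes outside these limits were not analysed here.

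Immediate early genes are transcribed within minutes of a stimulus by factors already present in the cell, and most of their transcripts are short-lived. Serum and growth factors act on them mainly through the MAP kinase cascade, and glucocorticoids through the glucocorticoid receptor, a nuclear receptor that binds DNA at glucocorticoid response elements. In liver, glucocorticoids maintain gluconeogenic genes during fasting, while Egr1, Ier3 and Myc are known for quick induction after feeding signals, injury and partial hepatectomy. Sgk1 and Dusp1 are the 2 members best known as direct glucocorticoid targets, although serum induces both as well. Egr1, Ier3 and Myc are the 3 members known mainly from growth factor and stress induction.

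Promoter windows of 300 bases (250 before to 50 after an annotated start, RefSeq, GRCm38.p6) were matched by symbol for 3 of the 5 genes, with 6 windows for Sgk1 and 1 each for Dusp1 and Ier3. These 4 are shown because they set the glucocorticoid-type element of Sgk1 and the cAMP-type element of Dusp1 beside the window of a growth factor-induced member. Windows 1, 2 and 4 of Sgk1 also held matches, and window 3 held none. AGAACA or its reverse complement was in windows 1 and 4, and TATAAA in window 4. TGACG, which is part of the cAMP-type element, was in window 2. Windows 5 and 6 of Sgk1, numbered in genome order, lie at chr10:21993640-21993939 and chr10:21994416-21994715 on the plus strand. The Dusp1 window lies at chr17:26508423-26508722 on the minus strand and the Ier3 window at chr17:35821463-35821762 on the plus strand. Capitals mark every match to a searched motif.
Sgk1 window 5: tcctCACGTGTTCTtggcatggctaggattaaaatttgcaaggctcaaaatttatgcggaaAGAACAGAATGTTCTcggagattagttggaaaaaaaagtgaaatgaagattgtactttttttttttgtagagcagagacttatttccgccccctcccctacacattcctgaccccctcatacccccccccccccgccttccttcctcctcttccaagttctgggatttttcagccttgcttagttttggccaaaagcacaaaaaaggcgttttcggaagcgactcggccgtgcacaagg
Sgk1 window 6: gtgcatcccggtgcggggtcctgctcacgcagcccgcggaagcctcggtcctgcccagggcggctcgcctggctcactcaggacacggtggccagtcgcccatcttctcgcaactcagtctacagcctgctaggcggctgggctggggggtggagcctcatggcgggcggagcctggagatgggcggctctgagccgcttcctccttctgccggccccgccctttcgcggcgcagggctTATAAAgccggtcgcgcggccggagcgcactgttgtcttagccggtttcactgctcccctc
Dusp1: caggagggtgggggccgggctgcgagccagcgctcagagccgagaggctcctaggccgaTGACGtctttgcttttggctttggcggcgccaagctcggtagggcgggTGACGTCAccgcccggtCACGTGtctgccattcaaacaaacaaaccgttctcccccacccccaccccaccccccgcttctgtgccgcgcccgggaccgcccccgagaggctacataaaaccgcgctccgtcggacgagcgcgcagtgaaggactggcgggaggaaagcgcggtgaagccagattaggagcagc
Ier3: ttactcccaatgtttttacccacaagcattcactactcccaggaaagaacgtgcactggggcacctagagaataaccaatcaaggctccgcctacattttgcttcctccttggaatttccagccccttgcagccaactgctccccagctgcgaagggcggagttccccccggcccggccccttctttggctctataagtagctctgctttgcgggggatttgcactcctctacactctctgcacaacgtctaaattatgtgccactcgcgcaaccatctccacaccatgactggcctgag

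Window 5 of Sgk1 holds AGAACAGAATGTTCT, which is AGAACA, 3 bases and its inverted repeat TGTTCT, starting 189 bases before the start. This palindrome, the textbook form of a glucocorticoid response element, was found in 3 of all 32817 windows (0.00914%), whereas the hexamer AGAACA on either strand was found in 19.0%. A further match to that hexamer starts 242 bases before the same start and overlaps a CACGTG E-box at 246 bases before it. CACGTG occurs in 7.15% of windows. Window 6 of Sgk1 holds TATAAA 11 bases before its start, a motif of 13.6% of windows. The Dusp1 window holds the cAMP response element TGACGTCA 143 bases before its start, found in 1.79% of windows, and a separate TGACG at 191 bases before it. TGACG, whether or not part of a full element, was found in 20.8% of windows. The Dusp1 window also holds CACGTG at 126 bases before the start. None of the motifs searched matched in the Ier3 window. The search covered both strands and also took in the CArG box bound by serum response factor (1.63% of windows), the AP-1 site TGAGTCA (5.20%) and the PPAR-type repeat of AGGTCA, 1 base and AGGTCA (0.0396%), none of which matched in any of the 8 windows of these genes. These matches describe letters, not bound sites, and where they are missing nothing follows about the factor.

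Libraries held about 21200000 to 26700000 reads, worked out from the smallest steps of CPM (read counts scaled to library size), so 3 reads correspond to 0.112 to 0.141 CPM. The vehicle libraries listed fewer of the lowest values, with 89 to 95 genes of up to 20 reads against 125 to 136 in gigantol libraries. Their read counts and intervals are therefore estimates made with fewer low values. Gigantol replicate 2 and vehicle replicate 1 stood apart within their groups. Among the 201 genes that reached 1 CPM in 3 or more libraries, gigantol replicate 2 was the highest gigantol liver for 40.3% and the lowest for 43.3%, and vehicle replicate 1 was the highest vehicle liver for 42.8% and the lowest for 46.3%. For Sgk1, Dusp1, Egr1, Ier3 and Myc, differences between groups are also given with 1 library left out. Ratios between genes, orders within groups, profile distances, nearest genes and the means of other named genes are given with all livers only. Those results may rest on gigantol replicate 2 or vehicle replicate 1.

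All 5 genes had lower means in the gigantol livers, by 2.09-fold (Dusp1) to 2.51-fold (Ier3). Of the table's rows, 64.2% had a lower gigantol mean. For 4 of the 5 every gigantol liver lay below every vehicle liver, the exception being Myc. Of the table's 332 rows 161 (48.5%) were so placed, all of them among the 213 rows with a lower gigantol mean. In the authors' deposited table the row of lowest p has an FDR 13192 times that p. This is the number of genes adjusted over only if that row ranked first of all genes tested. Sgk1 alone fell at an FDR under 0.05 in that table, which is 1 of 5 where 15.7% of rows passed downward and 10.2% upward. Since the rows were selected on this contrast, nothing is read from these shares. The median log2 fold change in the authors' deposited table was −1.21 for the 5 genes, all of them lower. It was −1.15 for all 332 rows, of which 213 had lower and 119 higher gigantol means, so it does not give a typical fall. On the log2(CPM + 1) scale the medians were −1.12 for the 5 genes and −0.72 for the 201 genes fitted, higher and lower genes together.

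**Figure D1:**
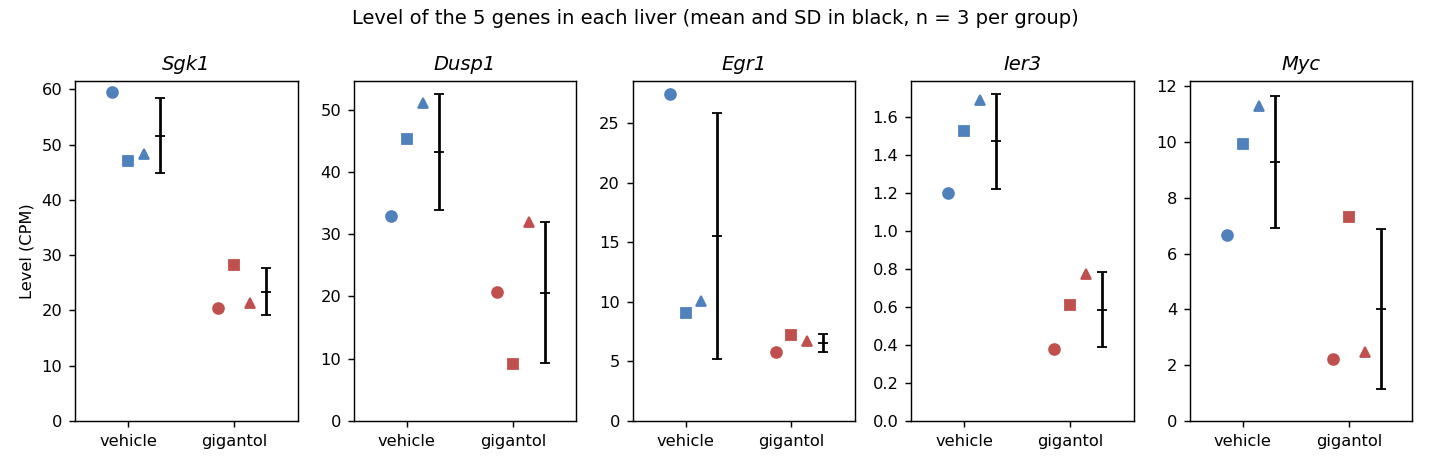
Level of Sgk1, Dusp1, Egr1, Ier3 and Myc in CPM (vertical axes from 0, a separate scale for each gene) in the 3 vehicle and 3 gigantol livers. Points are livers, with circles, squares and triangles for replicates 1, 2 and 3, and black bars give the mean and SD. The groups overlap for Myc, where gigantol replicate 2 reached 7.32 CPM, and nearly touch for Dusp1.

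Sgk1, the serum- and glucocorticoid-regulated kinase of the PI3K pathway, which acts on ion channels and FoxO factors, was at 20.5, 28.3 and 21.4 CPM in gigantol replicates 1, 2 and 3. In vehicle replicates 1, 2 and 3 it was at 59.5, 47.1 and 48.4 CPM. The groups were well apart, the lowest vehicle liver standing 1.67 times above the highest gigantol liver. Means were 23.4 ± 4.23 CPM against 51.6 ± 6.83 CPM (SD, n = 3 each), a 2.21-fold lower level in gigantol livers. The log2(CPM + 1) difference was −1.12 ± 0.45 (limma SE), and the authors' deposited table gave FDR 3.70e-05. That SE depends on the moderation and was 0.283 without trend and robust fitting. Leaving out any 1 library gave 2.04-fold to 2.46-fold. Each value rested on 436 to 1589 reads. Sgk1 (ENSMUSG00000019970) spans chromosome 10 from 21758083 to 21875802 on the plus strand as the table places it, with 13 transcripts.

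Dusp1, the phosphatase that switches off p38, JNK and ERK kinases, was at 20.7, 9.20 and 32.0 CPM in gigantol replicates 1, 2 and 3. It was at 32.9, 45.4 and 51.1 CPM in vehicle replicates 1, 2 and 3. Gigantol replicate 3 and vehicle replicate 1 lay side by side, only 1.03 times apart, while gigantol replicate 2 was far below the rest. Means were 20.6 ± 11.4 against 43.1 ± 9.31 CPM (SD, n = 3 each), with a log2(CPM + 1) difference of −1.16 ± 0.53 (limma SE). The authors' deposited table gave 0.317 as its FDR, which is not under 0.05. Without gigantol replicate 2 the vehicle mean was 1.64 times the gigantol mean. Dusp1 (ENSMUSG00000024190) spans chromosome 17 from 26724564 to 26781102 on the minus strand, with 6 transcripts. In the GENCODE M21 annotation 11 of its 3311 exon bases also lie in exons of Ergic1 on the other strand, and the sources do not say whether the authors counted by strand.

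Within each liver the 2 glucocorticoid-induced members did not keep a fixed ratio. Sgk1 CPM divided by Dusp1 CPM was 0.991, 3.07 and 0.670 in gigantol replicates 1, 2 and 3. The same ratio was 1.81, 1.04 and 0.946 in vehicle replicates 1, 2 and 3. Gigantol replicate 2 was thus the liver with the most Sgk1 and the least Dusp1 of its group, and vehicle replicate 1 the same within the vehicle group.

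Egr1, a zinc finger transcription factor made on MAP kinase activation, was at 5.74, 7.23 and 6.71 CPM in gigantol replicates 1, 2 and 3. Vehicle replicates 1, 2 and 3 had 27.4, 9.03 and 10.1 CPM. The gigantol livers were close together, and vehicle replicate 1 alone was far above all others. Means were 6.56 ± 0.753 against 15.5 ± 10.3 CPM (SD, n = 3 each), 2.36-fold apart, with a log2(CPM + 1) difference of −0.96 ± 0.48 (limma SE). Without vehicle replicate 1 the vehicle mean was 9.55 CPM and the difference 1.46-fold. The authors' deposited table gave FDR 0.190. Egr1 (ENSMUSG00000038418) spans chromosome 18 from 34992876 to 34998037 on the plus strand, with 2 transcripts.

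Ier3, a small stress- and growth factor-inducible protein that affects cell survival, was the scarcest member, at 0.377, 0.610 and 0.772 CPM in gigantol replicates 1, 2 and 3. It was at 1.20, 1.53 and 1.69 CPM in vehicle replicates 1, 2 and 3. These levels are 8, 13 and 19 reads against 32, 39 and 39 reads. The groups did not overlap, but the exact Poisson 95% interval of gigantol replicate 3 (11.4 to 29.7 reads) and that of vehicle replicate 1 (21.9 to 45.2 reads) did, and such intervals cover counting error only. Means were 0.586 ± 0.199 against 1.47 ± 0.251 CPM (SD, n = 3 each), 2.51-fold apart, and the authors' deposited table gave FDR 0.201. The log2(CPM + 1) difference of −0.64 ± 0.19 (limma SE) understates this, and was −1.23 with 0.1 CPM added in place of 1. Ier3 reached 1 CPM in the 3 vehicle livers and in 0 gigantol livers, so it entered the fit through the group where it is high and had to differ. Ier3 (ENSMUSG00000003541) spans chromosome 17 from 36132576 to 36133815 on the plus strand, with 1 transcript.

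Myc, the transcription factor that drives ribosome production and cell growth, was at 2.21, 7.32 and 2.48 CPM in gigantol replicates 1, 2 and 3. It was at 6.67, 9.93 and 11.3 CPM in vehicle replicates 1, 2 and 3. Gigantol replicate 2 lay above vehicle replicate 1, so the groups overlapped. Means were 4.01 ± 2.88 against 9.29 ± 2.37 CPM (SD, n = 3 each), 2.32-fold apart, with a log2(CPM + 1) difference of −1.16 ± 0.45 (limma SE), and the authors' deposited table gave FDR 0.325. Without gigantol replicate 2 the gigantol mean was 2.35 CPM and the difference 3.96-fold, and without vehicle replicate 1 it was 2.65-fold. The groups did not overlap in either case. Myc (ENSMUSG00000022346) spans chromosome 15 from 61857240 to 61862223 on the plus strand, with 7 transcripts. The span of all 5 genes has the same length as in GENCODE M21 (GRCm38) at other coordinates, and the sources do not name the build of the table.

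**Figure D2:**
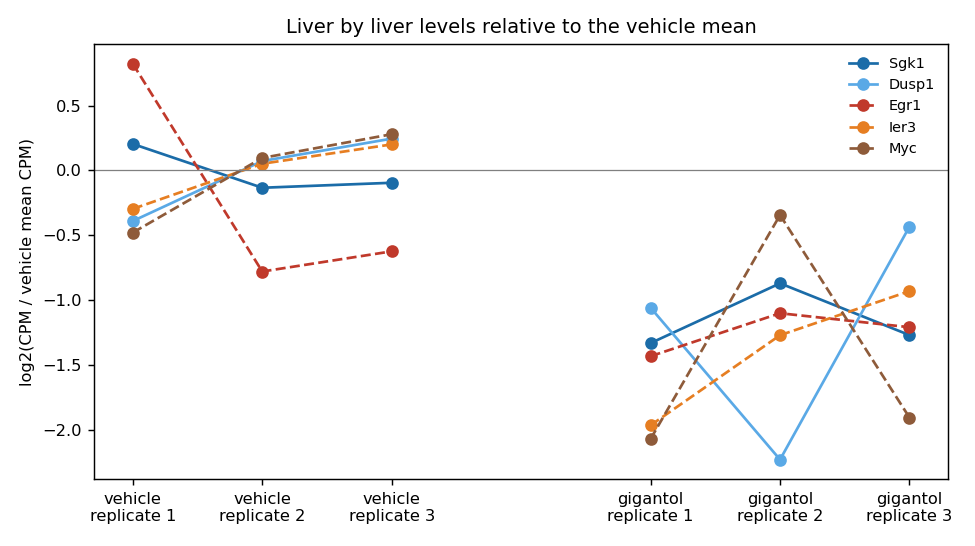
Level of each of the 5 genes relative to its own vehicle mean, as log2 of the CPM ratio (vertical axis), in each liver (horizontal axis). Solid lines mark the glucocorticoid-induced Sgk1 and Dusp1 and dashed lines the growth factor-induced Egr1, Ier3 and Myc, and lines only join points of a gene, since livers have no order. In gigantol replicate 2 Dusp1 is at its lowest while Myc and Sgk1 are at their highest among gigantol livers.

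The spread among livers did not follow the split into glucocorticoid-induced and growth factor-induced members. In the gigantol group Sgk1, Egr1 and Myc all had replicate 2 highest, replicate 3 next and replicate 1 lowest, while Dusp1 and Ier3 were highest in replicate 3. In the vehicle group Dusp1, Ier3 and Myc had replicate 3 highest and replicate 1 lowest, and Sgk1 and Egr1 had replicate 1 highest and replicate 2 lowest. Sgk1 and Egr1 thus shared 1 order in both groups, although one is grouped with glucocorticoid and the other with growth factor targets. Parts of these orders lie within counting error, and few orders are possible among 3 livers. Exact Poisson 95% intervals overlapped for Egr1 in gigantol replicates 2 and 3 (6.13 to 8.46 and 5.72 to 7.81 CPM). They also overlapped for Sgk1 in gigantol replicates 1 and 3 and in vehicle replicates 2 and 3. The orders of Ier3 rest on few reads. The coefficient of variation among gigantol livers was 71.8% for Myc and 55.2% for Dusp1, against 33.9% for Ier3, 18.1% for Sgk1 and 11.5% for Egr1. Among vehicle livers it was 66.6% for Egr1 and 13.2% to 25.5% for the other 4.

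Likeness between genes was measured as the mean absolute difference of log2(CPM + 1) over the 6 livers, each gene centred on its own mean, so smaller is more alike. It includes the difference between groups that selected these rows. Sgk1 was 0.240 from Ier3, 0.324 from Egr1, 0.409 from Myc and 0.589 from Dusp1. Adding 1 CPM shrinks the differences of a scarce gene such as Ier3. With 0.1 CPM added, an alternative chosen after seeing the data, these distances were 0.339 from Ier3, 0.330 from Egr1, 0.516 from Myc and 0.615 from Dusp1. Over all 6 livers, Dusp1 was the farthest of the other 4 members from Sgk1 with either value added. Sgk1 CPM over Dusp1 CPM was 3.07 in gigantol replicate 2 and 1.81 in vehicle replicate 1, against 0.670 to 1.04 in the remaining livers. Distances were not computed without these livers, so this order may rest on them.

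The genes nearest to each member came from varied families, and which they were depended on the value added. With 0.1 CPM added, 1 of the 3 named here was again among the nearest 3 for Sgk1 and for Ier3, and 2 of 3 for Dusp1, Egr1 and Myc. Nearest to Sgk1 were Gbp8 (0.107) and Gbp11 (0.114), interferon-inducible GTPases, and the pseudogene Spr-ps1 (0.136). Spr-ps1 is near the floor, at 0.047, 0.375 and 0.203 CPM in gigantol and 1.16, 1.17 and 1.13 CPM in vehicle replicates 1, 2 and 3. It reached 1 CPM in vehicle livers only, and with 0.1 CPM added it was not among the nearest 3. Nearest to Dusp1 were Trim5 (0.115), an antiviral tripartite motif gene, Des (0.239), the muscle and stellate cell filament desmin, and Slc37a1 (0.241), a sugar-phosphate carrier. For Egr1 they were Osbpl3 (0.101), an oxysterol-binding protein family member, Arsg (0.127), a lysosomal sulfatase, and Vldlr (0.134), a lipoprotein receptor. All 3 were, like Egr1, far higher in vehicle replicate 1, with Osbpl3 at 8.20 CPM there against 2.54 and 2.26 CPM in vehicle replicates 2 and 3. For Ier3 they were Letm2 (0.0764), Ifi213 (0.0914), an interferon-activated gene, and Lst1 (0.117), a leukocyte transcript. For Myc they were Cish (0.128), a feedback inhibitor of cytokine signalling, the predicted gene Gm48942 (0.148) and Slc25a25 (0.194), a mitochondrial carrier. Cish was at 4.71, 11.1 and 4.35 CPM in gigantol and 12.8, 19.8 and 18.7 CPM in vehicle replicates 1, 2 and 3. Like Myc, it was highest of its group in gigantol replicate 2 and lowest of its group in vehicle replicate 1.

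Levels of different genes can be set side by side only per length, here CPM per kb of exon in GENCODE M21. The length joins all annotated exons of a gene, 4.90 kb for Sgk1 and 3.31 kb for Dusp1. Transcripts present in liver may be shorter, so the order may depend on this length. In vehicle livers the order was Dusp1 (13.0 ± 2.81), Sgk1 (10.5 ± 1.39), Egr1 (3.46 ± 2.30), Myc (3.42 ± 0.873) and Ier3 (1.30 ± 0.222 CPM per kb, SD, n = 3). Dusp1 and Sgk1, and likewise Egr1 and Myc, did not differ beyond their spread. In gigantol livers the order was Dusp1 (6.23 ± 3.44), Sgk1 (4.77 ± 0.862), Myc (1.47 ± 1.06), Egr1 (1.46 ± 0.168) and Ier3 (0.518 ± 0.176 CPM per kb, SD, n = 3), with the same pairs within their spread.

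Other glucocorticoid-induced genes went both ways. Of 33 genes listed, 8 were analysed here, Sgk1 and Dusp1 included, and 6 had lower and 2 higher gigantol means. Of the 8, 4 fell and 0 rose at FDR under 0.05 by the authors' deposited table, where 15.7% of all rows fell and 10.2% rose. Beside Sgk1 these were Igfbp1, a binding protein of insulin-like growth factors, G6pc, the last enzyme of gluconeogenesis, and Irs2, an insulin receptor substrate. Igfbp1 was at 69.4, 109 and 195 CPM in gigantol and 1122, 431 and 309 CPM in vehicle replicates 1, 2 and 3. G6pc was at 74.6, 294 and 123 CPM against 632, 443 and 425 CPM, and Irs2 at 4.71, 19.9 and 10.5 CPM against 46.4, 28.6 and 31.5 CPM. G6pc and Irs2 had the in-group orders of Sgk1 in gigantol livers, with replicate 2 highest and replicate 1 lowest.

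Ddit4, a glucocorticoid- and stress-induced inhibitor of mTORC1, instead had the gigantol order of Dusp1. It was at 14.3, 6.67 and 31.6 CPM in gigantol and 51.1, 39.5 and 47.8 CPM in vehicle replicates 1, 2 and 3, and the authors' deposited table gave FDR 0.159. The groups did not overlap, and gigantol replicate 2 was again the lowest liver. Higher means were those of Gadd45b, a stress-response gene (9.85 ± 3.21 against 4.86 ± 0.603 CPM), and of Cdkn1a, the cell cycle inhibitor p21 (20.8 ± 9.39 against 8.14 ± 5.09 CPM, SD, n = 3 each). Cdkn1a was named after its values were seen. Neither passed, since the authors' deposited table gave FDRs 0.0850 and 0.210. The median log2 fold change of the 8 genes in the authors' deposited table was −1.27, against −1.15 for all 332 rows. On the log2(CPM + 1) scale it was −1.37, against −0.72 for the 201 genes fitted, so the gap depends on the scale and on which rows are taken.

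Among growth factor and serum immediate early genes 7 of 62 listed were analysed here, the 5 members among them, with 6 lower and 1 higher. Of the 7, Sgk1 alone fell and 0 rose at FDR under 0.05 by the authors' deposited table, a share near the 15.7% of all rows that fell. The other two were Gadd45b, with a higher mean, and Thbs1, the matrix protein thrombospondin. Thbs1 was at 2.07, 0.375 and 1.59 CPM in gigantol and 4.76, 2.39 and 2.60 CPM in vehicle replicates 1, 2 and 3, and the authors' deposited table gave FDR 0.494. The remaining 55, which include Fos, Jun, Atf3 and the Nr4a genes, were not analysed here. The 7 genes had a median log2 fold change of −1.21 in the authors' deposited table and a median log2(CPM + 1) difference of −0.96.

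**Figure D3:**
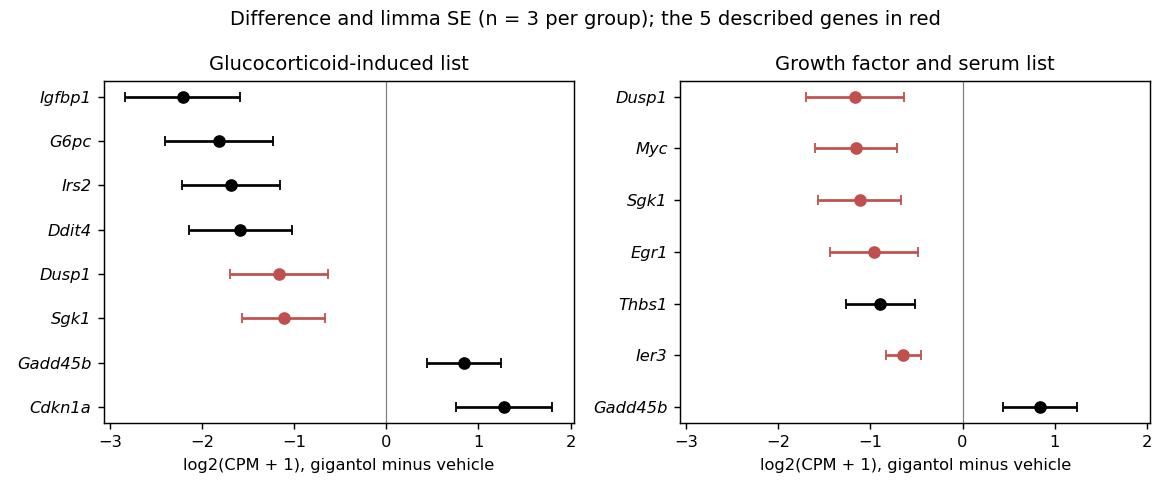
Difference in log2(CPM + 1), gigantol minus vehicle (horizontal axis), with limma SE (n = 3 per group), for the 8 glucocorticoid-induced genes (left) and the 7 growth factor and serum genes (right) analysed here. The 5 described genes are in red and lie between −1.16 and −0.64, and Gadd45b and Cdkn1a lie above 0.

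Neighbours of the 5 genes in their pathways were few among the genes analysed here. Of 16 ERK feedback genes only Spry2, an inhibitor of receptor tyrosine kinase signalling, was analysed, at 0.541 ± 0.0842 against 1.16 ± 0.370 CPM (SD, n = 3 each), and the authors' deposited table gave FDR 0.511. Dusp1 was the sole member analysed of 10 MAP kinase phosphatases, and Sgk1 and Irs2 of 30 SGK and PI3K pathway genes. Of 25 MYC partners and targets, Mycl, a MYC family paralogue, was analysed beside Myc. Mycl fell from 36.1 ± 10.5 to 17.8 ± 4.78 CPM (SD, n = 3 each), and the authors' deposited table gave FDR 0.0481. Unlike Myc it was lowest of its group in gigantol replicate 2 (13.8 CPM) and highest of its group in vehicle replicate 1 (48.1 CPM). Of 19 clock genes Arntl, which encodes BMAL1, was at 2.64 ± 1.02 against 1.28 ± 0.157 CPM (SD, n = 3 each), and the authors' deposited table gave FDR 0.304. None of 15 heat shock and handling stress genes was analysed here.

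The few markers of other cells that were analysed here had lower means in the gigantol livers, as had the 5 genes. Of 61 markers in 8 lists 12 were analysed here, and all 12 had lower gigantol means, as had 64.2% of all rows of this preselected table. In 7 of the 12 the groups did not overlap. Of the 213 rows with a lower gigantol mean, 161 were so placed, which is 48.5% of all rows. None of the 12 markers was at 0 in any liver. Marco, a scavenger receptor of Kupffer cells (1 of 10 Kupffer and macrophage markers), was at 2.54, 3.71 and 1.55 CPM in gigantol and 8.76, 8.21 and 8.89 CPM in vehicle replicates 1, 2 and 3, and the authors' deposited table gave FDR 0.000107. The stellate cell markers Lrat and Des (2 of 9) summed to 6.81 to 11.9 CPM in gigantol and 13.1 to 24.5 CPM in vehicle livers. Cd8a, Cd79a and Nkg7 (3 of 8 lymphocyte markers) summed to 0.565 to 0.939 against 2.00 to 2.27 CPM. Mpo (1 of 6 neutrophil markers) was at 0.0940 to 0.407 against 0.391 to 5.06 CPM. The erythroid genes Hba-a1, Hba-a2, Hbb-bs, Hbb-bt and Slc4a1 (5 of 6) summed to 349 to 633 against 554 to 1912 CPM.

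Sgk1, Dusp1, Egr1, Ier3 and Myc are made in non-parenchymal and blood cells as well as in hepatocytes, and the part of these cells in their levels was not tested. In bulk liver, fewer cells of a type and less RNA per cell cannot be told apart. The markers did not share 1 order among livers. Of the 12, 5 were highest and 5 lowest of the gigantol livers in replicate 2, and 2 were highest and 7 lowest of the vehicle livers in replicate 1. None of the 8 hepatocyte, 8 sinusoidal endothelial and 6 cholangiocyte markers was analysed here, so the tissue label was not checked against them.

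**Figure D4:**
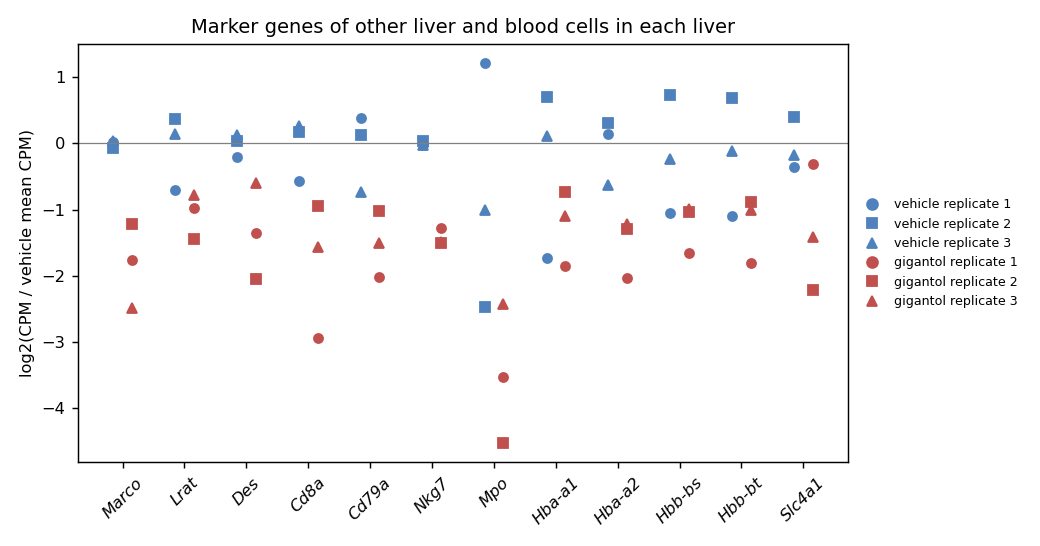
Level of the 12 marker genes analysed here relative to each gene's vehicle mean, as log2 of the CPM ratio (vertical axis), with 1 point per liver (vehicle blue, gigantol red; circles, squares and triangles for replicates 1, 2 and 3). Marco, Lrat, Des, Cd8a, Cd79a, Nkg7 and Hba-a2 show no overlap between groups, while Mpo, Hba-a1, Hbb-bs, Hbb-bt and Slc4a1 overlap.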

How the data were processed

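Bulk RNA-seq of 6 mouse livers was analysed, 3 per group by the treatment label. Per the labels' protocols, ribosomal RNA was removed and stranded libraries were made. Per the submitters' processing notes, fastp, HISAT2, DESeq2 1.16.1 and the human build GRCh38 were named, with no roles. For the read counter and any filter, nothing was given in these sources. The expression columns hold CPM made by the authors. This unit was read from the values, since the header names none: all values up to 200 reads were whole multiples of 1 step per library, within 0.1 reads, although vehicle libraries held few of the lowest values and no count test was run. The authors' log2 fold changes, p-values and FDRs were deposited beside them, per the file headers.

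The 5 genes and all gene lists were chosen with earlier results of these data known. Differences and SEs come from limma 3.58.1 (R 4.3.3) on log2(CPM + 1), with trended and robust moderation, fitted to the 201 genes that reached 1 CPM in 3 or more libraries. All 5 genes passed that filter. The fit was checked on simulated data with the same dispersion in every library, so the check does not cover livers that stand apart. The other 131 rows were not fitted. The moderation borrowed spread from rows selected on these libraries, so the SEs describe this table. Named were the 5 genes, list genes (values for the 6 of highest mean CPM per list) and the 3 genes nearest in profile to each member. Alternatives were other pseudocounts, no filter, plain moderation, a replicate block and leaving out each library. Same-group libraries were separate samples: their chi-square per gene was 29.7 to 235, where counting error alone gives about 1.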

Additional observations from a re-analysis of the deposited data

How the results depend on the processing

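With other pseudocounts or 1 library left out, the 40 recomputed log2 differences of Sgk1, Dusp1, Egr1, Ier3 and Myc stayed below 0. For the 4 genes whose groups do not overlap that sign was fixed in advance. Of the 40, 38 moved by less than 1 SD between livers. Leaving out 1 of 3 livers cannot move a difference by that much, so this count says nothing about single livers. Dropping the filter, plain moderation and the replicate block cannot move a difference of means in this balanced design and change only the SE, which plain moderation took from 0.450 to 0.283 for Sgk1 and from 0.190 to 0.272 for Ier3. The 2 that moved further were those of Ier3, at −0.87 with a pseudocount of 0.5 CPM and −1.23 with 0.1 CPM, since the added value is large beside its level. With 1 library left out the differences ranged from −1.25 to −1.01 for Sgk1, −1.55 to −0.70 for Dusp1, −1.23 to −0.48 for Egr1, −0.73 to −0.54 for Ier3 and −1.59 to −0.91 for Myc. The smallest difference of Dusp1 came without gigantol replicate 2 and that of Egr1 without vehicle replicate 1. The number of the 5 genes without overlap was 4 or 5, being 5 without gigantol replicate 2 (54.5% of all rows so placed) or vehicle replicate 1 (61.4%). That number could not fall below 4, since leaving out a liver cannot make separate groups overlap.

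Over the whole table, limma passed 111 of 201 genes at an adjusted p under 0.05, which is circular on preselected rows, and 169 with no filter. Leaving out 1 library gave 32 to 136, namely 57 without gigantol replicate 1, 60 without gigantol replicate 3, 32 without vehicle replicate 2 and 35 without vehicle replicate 3. The replicate block gave 128 genes and SEs of 0.525 for Sgk1, 0.535 for Dusp1, 0.527 for Egr1, 0.215 for Ier3 and 0.464 for Myc. Same-numbered livers share only a number: deviations from the group means, across 201 genes that are not independent replicates, correlated at 0.128, 0.149 and −0.105, and not every liver correlated best with its own number. Depth limits Ier3 most, at 8 to 39 reads.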
